A study of Sus scrofa with 24 samples.

Results

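The extracellular matrix genes of pig back muscle were compared between animals with much and little intramuscular fat (IMF), the fat stored between the fibres and fibre bundles of a muscle. The genes are the collagens (symbols starting with COL and a digit), the laminins (LAMA, LAMB or LAMC and a digit) and 20 named matrix genes. They number 49 of the 12017 genes in the table, with 22 collagen symbols, 7 laminins and the 20 named genes. All 49 passed the filter for testing, a mean of at least 0.5 FPKM (fragments per kilobase of transcript, scaled to the reads mapped in each library), which left 11757 genes. The symbol rule also takes in COL4A3BP, a ceramide transfer protein that is not a collagen.

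The matrix of skeletal muscle is a layered sheath. Fibrillar collagens form the fibres of the endomysium, perimysium and epimysium, and small proteoglycans and glycoproteins bind to these fibres and set their spacing. Each muscle fibre, capillary and fat cell is also wrapped in a basement membrane, in which laminins and collagen IV form networks joined by nidogens and perlecan. Fibroblasts and their fibro-adipogenic relatives make most of the fibrillar matrix, and the lysyl oxidases, metalloproteinases and their inhibitors govern its cross-linking and turnover. Intramuscular fat cells lie within the perimysium, so the matrix is the setting in which they form.

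The samples are longissimus dorsi muscle, the long muscle of the back, of 24 crossbred pigs (Duroc x Luchuan). The animals came from 265 F1 offspring, with 112 Luchuan sows as dams and 8 Duroc boars as sires, and were fed alike on the same farm. They were slaughtered at 210 ± 6 days of age and sampled 25 minutes after death. High IMF is the label of 12 animals and low IMF that of the other 12, the labels used here give no fat percentage, sex or litter, and each library is 1 animal. Animals are numbered within each group in accession order, so a number only names an animal. High 4 and high 8 shared the first 9 digits of the animal identifier. So did low 2 with low 8, and low 6 with low 7. The labels do not give the meaning of these digits, so kinship within these pairs is unknown. The main limma fit and the permutation tests treated all 24 animals as independent. A limma run with 1 animal per shared 9 digits is given among the alternatives. The muscle identity was plain in every library, since the summed FPKM of 13 skeletal fibre genes was 22530 to 59808, against 555 to 2317 for the 49 matrix genes. EIF1AY, a Y-linked gene, was at 0 to 0.131 FPKM in high 1, 2, 3, 8 and 11 and in low 2, 5 and 10. In the other animals it was at 14.3 to 28.9 FPKM, and it is the Y-linked level used below. In bulk tissue, fewer cells of a type and less RNA per cell cannot be told apart.

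Depth was not stated in the table. A step in the base coverage of low values gave about 32.9 to 40.8 M reads per library, as a relative estimate. In high 7 and low 10 the 10 most abundant genes took 20.2% and 18.5% of all FPKM, against at least 24.7% in the other animals. ACTA1, a skeletal fibre gene, was at 1012 FPKM in high 7 and 8975 FPKM in low 10, against at least 16157 FPKM in the other animals. Without both animals, 3 members instead of 2 were higher at an unadjusted p under 0.05. That was 6.12% of the members, against 11.4% of all genes tested. With both animals kept, the shares were 4.08% and 6.79%.

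No matrix gene was called in high against low IMF by limma on log2(FPKM + 1) with Benjamini-Hochberg adjustment at 0.05. The background was 6 of 11757 genes called, or 0.051%. The smallest adjusted p of a member was 0.464, for COL5A2. At an unadjusted p under 0.05, COL4A1 and LAMA2 were higher and COL5A2 was lower. That is 4.08% of the members higher against 6.79% of all genes tested, and 2.04% lower against 0.893%. These shares rest on 2 genes and 1 gene. All 49 members had overlapping values in the high and low animals.

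Direction alone gave the same picture. A positive log2 fold change was found for 37 of the 49 members, or 75.5%, against 73.4% of all genes tested. The median log2 fold change was 0.14 for the members and 0.08 for all genes. With libraries scaled by the trimmed mean of M values (TMM), 31 members or 63.3% were positive, against 49.8% of all genes, and the medians were 0.05 and -0.000855. The 95% intervals of 46 members included 0. Their widths limit what can be said: the interval reached 0.142 to 1.16 to either side of the estimate, with a median of 0.401 on the log2 scale.

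**Figure D1:**
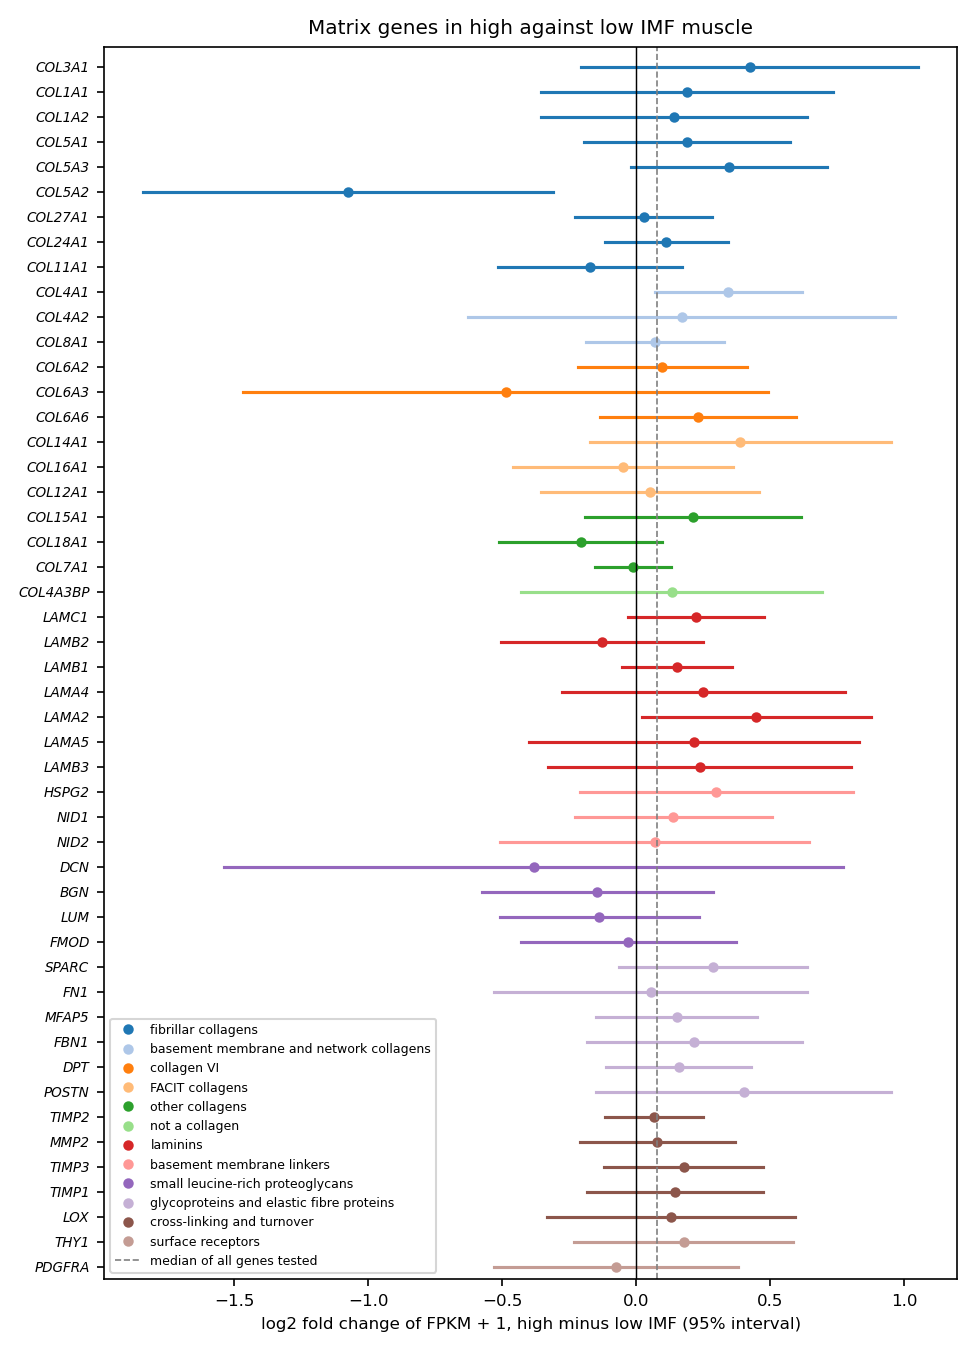
Points show the log2 fold change of FPKM + 1, high minus low IMF, for the 49 matrix genes, with 95% intervals from limma as lines and colours for the role of the gene. The dashed line marks the median of all genes tested (0.08). The intervals of COL5A2, COL4A1 and LAMA2 lie off 0, and no gene passed the adjusted threshold.

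Fibrillar collagens, which assemble into the load-bearing fibres, held 43.4% of the members' FPKM, or 33.6% without the doubtful transcripts described further on, chiefly a short COL3A1 transcript. Of these 9 genes, 7 had a positive log2 fold change, COL27A1 turning negative under TMM and upper-quartile scaling, and none was called. COL3A1, the chain of the thin reticular fibres, was the most abundant member with its short transcript counted. It was at 169 to 643 FPKM in high IMF (median 383) and 66.1 to 858 FPKM in low IMF (median 325). All high animals lay between the extremes of the low group, low 2 and low 9. The means were 394 ± 117 and 344 ± 218 FPKM (SD, n = 12 each), and the log2 fold change was 0.42 (SE 0.306, limma adjusted p = 0.744).

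COL1A1, the main chain of type I collagen, lay at 55.1 to 145 FPKM in high IMF (median 87.3) and at 28.1 to 263 FPKM in low IMF (median 83.6). The groups overlapped fully and their means were 90.5 ± 26.9 and 90.6 ± 61.7 FPKM. The log2 fold change was 0.19 with a 95% interval of -0.35 to 0.74, which leaves a change of either sign possible. COL1A2, the second chain, averaged 68.5 ± 16.0 and 70.2 ± 42.8 FPKM, with a log2 fold change of 0.14. The low means and SDs rest on low 9: without it COL1A1 averaged 74.96 ± 30.8 FPKM and COL1A2 59.8 ± 24.2 FPKM over the other 11 low animals.

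Type V collagens, which start and limit the diameter of type I fibres, went different ways. COL5A2 was at 0.132 to 12.7 FPKM in high IMF (median 1.41) and 0.475 to 10.9 FPKM in low IMF (median 4.51). Only 2 of 12 high animals lay above the low median, high 8 and high 10, and the highest value of all was in high 8. The log2 fold change was -1.08 (SE 0.372, limma p = 0.00766, adjusted p = 0.464). COL5A3 averaged 10.7 ± 3.09 and 8.42 ± 3.21 FPKM, with 10 of 12 high animals above the low median (log2 fold change 0.35, limma adjusted p = 0.662). COL5A1 averaged 15.7 ± 4.36 and 14.2 ± 5.75 FPKM. None of the 3 passed the test.

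**Figure D2:**
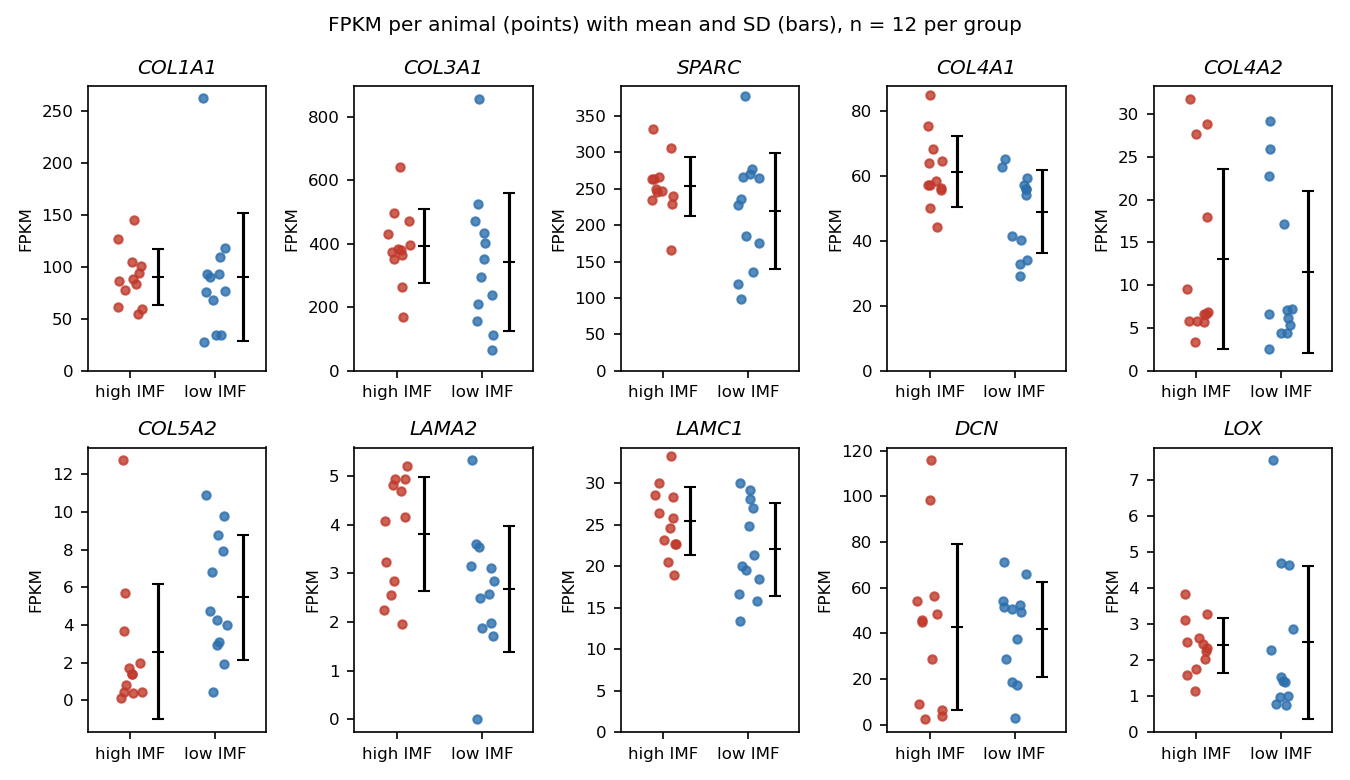
Each point is the FPKM of a gene in 1 animal, in red for high and blue for low IMF, and the bars give the mean and SD (n = 12 per group). The highest COL1A1, COL3A1, SPARC and LOX values are all in 1 low IMF animal, and COL4A2 splits into a lower and an upper set in both groups.

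In the basement membrane, COL4A1, a chain of the collagen IV network, was at 44.3 to 84.8 FPKM in high IMF (median 57.8) and 29.1 to 65.2 FPKM in low IMF (median 55.0). The ranges overlapped, but 10 of 12 high animals lay above the low median and 5 low animals lay under every high animal. The means were 61.3 ± 11 and 49.0 ± 12.7 FPKM (log2 fold change 0.34, SE 0.133, limma p = 0.0158, adjusted p = 0.544). Under TMM and upper-quartile scaling no member was higher at an unadjusted p under 0.05, COL4A1 included, against 2.81% and 2.51% of all genes tested.

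COL4A2, the partner chain of COL4A1, showed another pattern. In 16 animals, 8 of each group, it was at 2.57 to 9.57 FPKM, and in 8 animals, 4 of each group, at 17.1 to 31.8 FPKM. No animal lay between these sets, which were drawn after the values were seen. COL4A1 had nearly the same median in the lower set, 56.6 FPKM, and in the upper set, 56.5 FPKM. The genes lie head to head on chromosome 11 of Sscrofa11.1, where the listed COL4A1 transcript spans 76858233 to 76997364 on the minus strand. The COL4A2 transcript spans 76997126 to 77165491 on the plus strand, so the listed transcripts overlap by 239 bases. The sources used here do not say whether reads in that overlap were assigned by strand. COL4A2 averaged 13.1 ± 10.5 and 11.6 ± 9.46 FPKM in the high and low groups, a difference far inside the spread.

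Of the 7 laminins, the cross-shaped trimers that anchor cells to the basement membrane, 6 had a positive log2 fold change. LAMA2, the alpha chain of the main muscle laminin, was at 1.96 to 5.21 FPKM in high IMF (median 4.12) and 0 to 5.32 FPKM in low IMF (median 2.71). It was listed at 0 in low 10, the library with the lowest share of its top genes, and the highest value was in low 2. The means were 3.81 ± 1.18 and 2.68 ± 1.29 FPKM (log2 fold change 0.45, SE 0.208, limma p = 0.0399, adjusted p = 0.627). Without low 10 the log2 fold change was 0.29 (limma p = 0.0664), and leaving out any of 11 animals in turn took the unadjusted p over 0.05. Its single listed transcript has 24 exons and 3667 bases. LAMC1, the gamma chain shared by most laminins, averaged 25.4 ± 4.14 and 22.0 ± 5.62 FPKM, and LAMB1 15.4 ± 2.85 and 13.7 ± 1.93 FPKM. LAMB2, the beta chain of the synapse and mature muscle, averaged 17.6 ± 6.22 and 18.4 ± 3.84 FPKM, and none of these passed.

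The linkers had positive log2 fold changes in all 3 cases, although NID2 turned negative under TMM and upper-quartile scaling. HSPG2, which encodes perlecan, averaged 26.3 ± 7.83 and 22.7 ± 8.77 FPKM, with a minimum of 3.48 FPKM in low 3. NID1, a nidogen that ties laminin to collagen IV, averaged 11.9 ± 4.11 and 10.8 ± 3.79 FPKM. Among 14 endothelial genes tested, 10 were positive with a median log2 fold change of 0.11 and none was called. Of all genes tested 73.4% were positive, with a median of 0.08. Their summed FPKM was 71.7 to 114 in high and 58.3 to 106 in low IMF, and their part in the basement membrane values was not tested.

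Collagen VI, a beaded-filament network around each muscle fibre, was represented by COL6A2, COL6A3 and COL6A6. COL6A2 averaged 43.6 ± 12.3 and 40.1 ± 9.08 FPKM, and its log2 fold change of 0.10 turned negative under both other scalings. COL6A3 varied far more, from 0.471 FPKM in low 12 to 34.4 FPKM in low 4, and averaged 5.23 ± 5.17 and 8.02 ± 9.31 FPKM (log2 fold change -0.49, SE 0.476). COL6A6 averaged 1.71 ± 0.819 and 1.36 ± 0.866 FPKM.

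The other collagens bind to fibrils or lie at basement membranes. COL15A1, which ties basement membranes to the fibres around them, averaged 28.7 ± 9.61 and 24.9 ± 8.58 FPKM. COL18A1, the precursor of endostatin, was at 3.08 to 7.06 FPKM in high IMF (median 3.88) and 2.48 to 8.82 FPKM in low IMF (median 5.2). Only 2 of 12 high animals lay above the low median (log2 fold change -0.21, SE 0.148, limma adjusted p = 0.742). With TMM or upper-quartile scaling COL18A1 joined COL5A2 as lower at an unadjusted p under 0.05. That was 4.08% of the members, against 2.34% and 2.53% of all genes tested. COL12A1 and COL16A1, which decorate fibril surfaces, averaged 1.26 ± 0.338 and 1.45 ± 1.6 FPKM, and 2.02 ± 0.993 and 2.11 ± 1.0 FPKM. COL7A1 of anchoring fibrils and COL8A1 of vessel walls were under 1 FPKM on average. The 10 members outside the rule for named genes had log2 fold changes from -0.17 (COL11A1) to 0.25 (LAMA4), and their smallest adjusted limma p was 0.785, for DPT.

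The small leucine-rich proteoglycans, which coat collagen fibrils and limit their lateral growth, were the class without a positive member. All 4 had log2 fold changes from -0.38 to -0.03, although FMOD (fibromodulin), at the upper end, turned positive with a pseudocount of 0.1, a Y-linked level as a term or 1 animal per shared 9 identifier digits. FMOD also turned positive in some runs with 1 animal left out, among them that without low 9, its highest animal at 7.33 FPKM. DCN, or decorin, was at 2.32 to 116 FPKM in high IMF (median 45.4) and 3.11 to 71.2 FPKM in low IMF (median 49.95). Its spread was among the widest of the abundant members, since 4 high animals lay under 10 FPKM and the highest 2 at 98.6 and 116 FPKM. The log2 fold change of -0.38 (SE 0.562) was smaller than its error, while the plain means were almost the same, 42.9 ± 36.5 and 41.7 ± 20.8 FPKM. BGN, biglycan, averaged 9.01 ± 3.0 and 10.2 ± 4.24 FPKM and LUM, lumican, 6.24 ± 1.82 and 7.13 ± 2.79 FPKM.

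Glycoproteins held 21.5% of the members' FPKM, or 25.8% without the doubtful transcripts. All 6 had positive log2 fold changes, although FN1 turned negative under TMM and upper-quartile scaling. SPARC, a collagen-binding protein of matrix assembly, was second in abundance, or first with the short COL3A1 transcript left out. It was at 166 to 332 FPKM in high IMF (median 249) and 98.2 to 377 FPKM in low IMF (median 231). All high animals lay within the low range, with means of 253 ± 40.5 and 219 ± 79.6 FPKM (log2 fold change 0.29, SE 0.171, limma adjusted p = 0.704). FN1, fibronectin, averaged 14.4 ± 5.80 and 14.4 ± 7.97 FPKM. POSTN, periostin, averaged 1.81 ± 1.22 and 1.16 ± 1.0 FPKM and was listed at 0 in at least 1 animal of each group.

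The 5 genes of cross-linking and turnover had positive log2 fold changes from 0.07 to 0.18, of which MMP2 and TIMP2 turned negative under both other scalings. MMP2, which cleaves denatured collagen and collagen IV, averaged 24.0 ± 5.96 and 22.7 ± 5.68 FPKM. TIMP2, which inhibits it and also helps to activate it, averaged 36.4 ± 5.07 and 34.7 ± 4.52 FPKM, and varied less between animals than any other member (coefficient of variation 13.4%). TIMP3 averaged 23.3 ± 6.71 and 20.4 ± 5.16 FPKM. Of the surface genes of fibroblast-like cells, THY1 averaged 18.7 ± 6.22 and 16.5 ± 5.87 FPKM and PDGFRA 1.24 ± 0.991 and 1.38 ± 1.0 FPKM. A list of fibroblast genes included the member COL1A1, and shared CFD with the adipocyte list and PDGFRB with the smooth muscle and pericyte list. Among its 14 genes tested, 13 were positive with a median log2 fold change of 0.13 and none was called. Of all genes tested 73.4% were positive, or 49.8% with TMM scaling, and without that scaling their median was 0.08. Their summed FPKM was 376 to 799 in high and 349 to 710 in low IMF, and their part in the matrix values was not tested.

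The larger differences lay between animals. The summed FPKM of the 49 members was 890 to 1933 in high and 555 to 2317 in low IMF, with an SD of 262 and 486. The lowest animal was low 2 and the highest low 9, without which the low SD was 360.5. Of these sums, the short COL3A1 transcript gave 34.1 FPKM in low 2 and 495 FPKM in low 9. The median coefficient of variation over the 24 animals was 41.2% for the members and 32.6% for all genes tested. Low 9 was the highest animal for 12 of 49 members, or 24.5%, against 3.01% of all genes tested. Low 2 was the lowest for 9 members, or 18.4%, against 6.70%. Low 3 was the lowest for 6 members, and in that animal 12.9% of all genes tested were at their lowest.

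**Figure D3:**
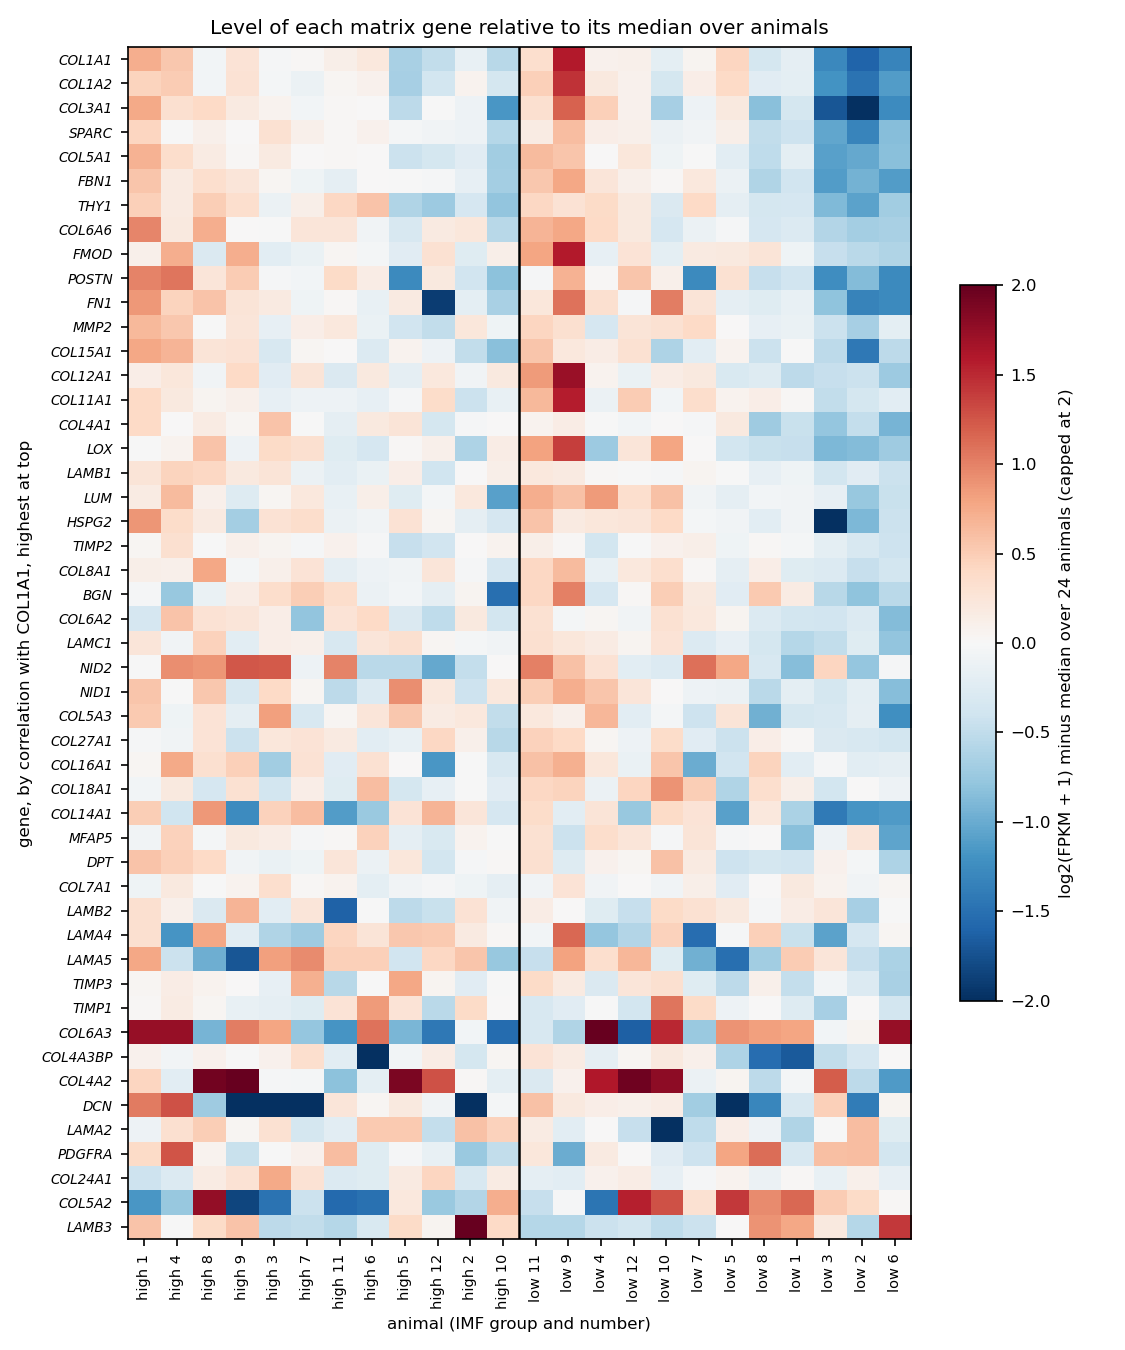
Colour gives log2(FPKM + 1) of each matrix gene minus its median over the 24 animals, capped at 2, with genes ordered from top to bottom by their correlation with COL1A1 and animals by IMF group. The upper rows follow one another across animals, with low 9 high and low 2, low 3 and low 6 low, while DCN, COL4A2, COL6A3 and COL5A2 near the bottom follow patterns of their own.

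Several members moved together across animals. Pearson's r of log2(FPKM + 1) with COL1A1 was at least 0.7 for 14 of the other 48 members, or 29.2%, against 0.493% of the other tested genes, as a description over the same 24 libraries. The closest were COL1A2, COL3A1, SPARC, COL5A1 and FBN1, the last being fibrillin-1 of elastic microfibrils. Negative values were found for 5 members, LAMA2, PDGFRA, COL24A1, COL5A2 and LAMB3.

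A set of 11 gene pairs was tested by permutation of animals (100000 resamples, two-sided, Benjamini-Hochberg over the 11). COL1A1 and COL1A2, whose products join in the same triple helix, had r = 0.986 and Spearman's rho = 0.965 (permutation p = 1e-05, the smallest possible, adjusted p = 2.75e-05). Without low 2 and low 9, the animals farthest from the COL1A1 median, r was 0.972. COL1A1 and COL3A1 gave r = 0.919 and rho = 0.871, and 0.886 without the same animals. COL1A1 and SPARC gave r = 0.896 and rho = 0.813, and 0.852 without them. Within the groups r was 0.639 to 0.951 in high and 0.951 to 0.994 in low IMF, and only COL1A1 with SPARC in high IMF (r = 0.639, permutation adjusted p = 0.0501) missed the threshold.

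The matrix-turnover pair MMP2 and TIMP2 gave r = 0.790 and rho = 0.780 (permutation adjusted p = 2.75e-05), 0.807 without the 2 farthest animals, and r = 0.769 in high and 0.809 in low IMF. COL1A1 with COL15A1, a collagen of the zone next to the basement membrane, gave r = 0.731 and rho = 0.781 (permutation adjusted p = 0.000264), and 0.695 without low 2 and low 9. COL1A1 with COL4A1 gave r = 0.656 and rho = 0.571 (permutation adjusted p = 0.000935) and 0.694 without the same animals, but r = 0.274 among the high and 0.802 among the low animals. The difference between the groups was not tested. LAMB1 with LAMC1, chains of the same trimer, gave r = 0.596 and rho = 0.551 (permutation adjusted p = 0.00371), and 0.576 without the 2 farthest animals. NID1 with HSPG2 gave r = 0.522 and rho = 0.723 (permutation adjusted p = 0.00851), and 0.533 without the 2 farthest. With TMM scaling these last pairs had r = 0.437 and 0.403 and missed the threshold (permutation adjusted p = 0.0524 and 0.0672). Within the identifier sets described below, r of the pairs that passed lay between 0.504 and 0.993.

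Other pairs did not pass. COL5A1 with COL5A2 gave r = -0.299 and rho = -0.357 (permutation adjusted p = 0.193), -0.268 without the 2 farthest animals. DCN with LUM gave r = 0.256 and rho = 0.376 (permutation adjusted p = 0.229), 0.187 without the 2 farthest. COL4A1 with COL4A2 did not pass either, with r = 0.259 and rho = 0.328 over all 24 animals (permutation adjusted p = 0.229), and 0.227 without the 2 farthest. It was 0.631 in the lower-numbered and -0.262 in the higher-numbered identifier set. As a description only, r was 0.757 within the 16 animals of low COL4A2 and 0.845 within the 8 of high COL4A2; these sets were drawn from the COL4A2 values themselves.

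**Figure D4:**
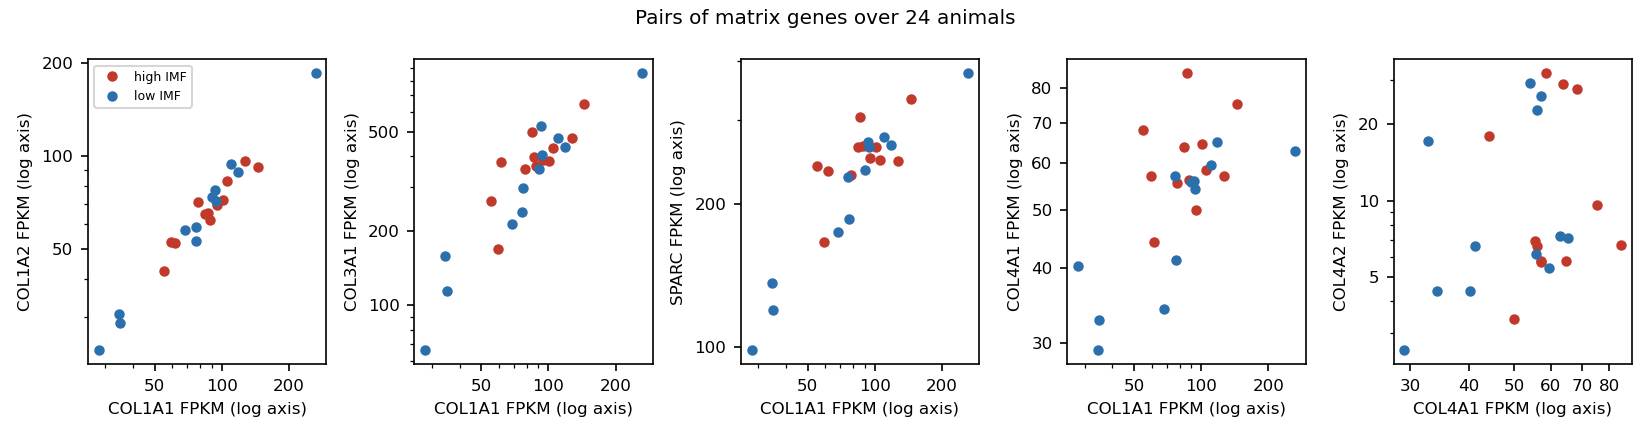
Each point is 1 animal, red for high and blue for low IMF, and both axes of every panel are FPKM on a log scale. COL1A2, COL3A1 and SPARC follow COL1A1 closely, and in the last panel COL4A2 separates into a lower set of 16 and an upper set of 8 animals at similar COL4A1 levels.

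None of 6 log2 ratios of FPKM + 1 between genes of the same animal passed (permutation, 100000 resamples, two-sided, adjusted over the 6). COL1A1 over COL3A1 was lower in high IMF by 0.23 (means -2.10 and -1.87, permutation p = 0.0817, adjusted p = 0.490), and 2 of 12 high animals lay above the low median. The other 5, COL1A1 over COL1A2, COL4A1 over COL4A2, COL1A1 over COL4A1, MMP2 over TIMP2 and DCN over BGN, had adjusted permutation p of at least 0.879.

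The first 4 digits of the animal identifiers, whose meaning the labels do not give, split each group into 6 and 6 animals. Between the sets with the lower and the higher number, with IMF group as a term, no member was called, and 0.0% of all genes were, while 6.48% passed an unadjusted p of 0.05. COL5A3 was 7.67 ± 2.43 FPKM in the lower-numbered set and 11.4 ± 3.0 FPKM in the higher-numbered set (log2 difference 0.54, SE 0.146, limma adjusted p = 0.767). COL4A2 had a log2 fold change of 0.97 within the lower-numbered set and -0.63 within the higher-numbered set (interaction p = 0.0292, limma adjusted p = 0.998). LAMB3 averaged 1.31 ± 1.66 FPKM in the lower-numbered set and 0.369 ± 0.407 FPKM in the higher-numbered set, and it is named after its values were seen.

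Some symbols rest on transcripts that do not represent the gene as a whole. Of the 98 listed transcripts of the members, 45 are reference transcripts, 49 are isoforms added by the assembly and 4 are assembled transcripts without a reference, and 17 members have no reference transcript. In COL14A1, 2 of 7 transcripts hold 36.4% and 35.2% of the sum but lie outside that gene, on chromosome 4 from 18976708 to 19146702, within DEPTOR in RefSeq. Without them COL14A1 averaged 5.60 ± 1.75 and 5.24 ± 3.01 FPKM, with a log2 fold change of 0.17 instead of 0.39. In COL3A1, a reference transcript of 1 exon and 136 bases holds 53.9% of the sum, and without it the gene averaged 183 ± 53.2 and 157 ± 89.0 FPKM (log2 fold change 0.40). Its mean over all animals is then 170 FPKM, under the 236 FPKM of SPARC. In LAMA4, a laminin chain of vessel walls, dropping an opposite-strand transcript moved the log2 fold change from 0.25 to 0.32. COL4A1, with 52 exons, COL27A1, a single exon of 985 bases, and COL24A1, with 8 exons, are listed only as transcripts placed there by the assembly. COL5A2 is listed only as an isoform added by the assembly, MSTRG.5474.1.

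The leading isoform differed between animals. In 17 of the 24 members with several transcripts, the most abundant one was not the same in all animals. In HSPG2, 4 of 7 transcripts were the largest in some animal, and the largest held a median of 77.5% of the sum, from 19.4% to 100%. In FN1, 4 of 5 transcripts took that place, and in COL6A3 each of 3 transcripts was the largest in 8 animals.

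**Figure D5:**
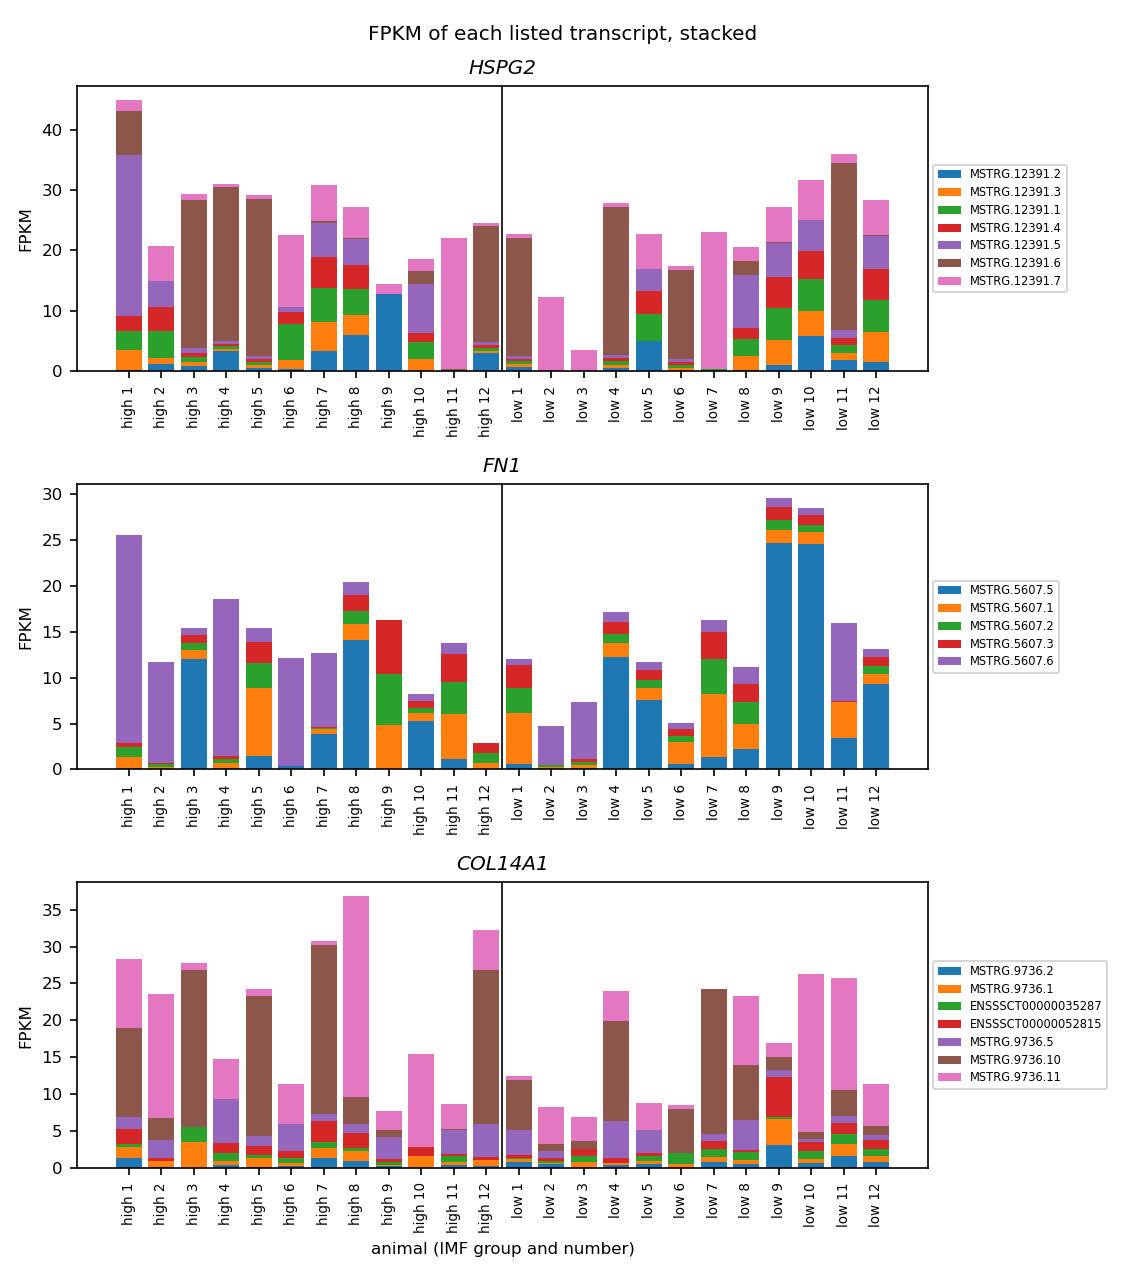
Stacked bars show the FPKM of each listed transcript of HSPG2, FN1 and COL14A1 in each of the 24 animals, high IMF to the left of the line and low IMF to the right, with the identifier of each transcript in the legend. The leading transcript changes from animal to animal within both groups.

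Of the 97 member transcripts tested, 0 were called by limma, against 0.0187% of all 21405 transcripts. At an unadjusted p under 0.05 there were 4 higher and 1 lower, and 6.34% of all transcripts passed in either direction. A minor SPARC isoform, MSTRG.6028.1, was at 3.02 to 28.7 FPKM in high IMF (median 7.48) and 0.0229 to 19.5 FPKM in low IMF (median 1.93). All 12 high animals lay above the low median (log2 fold change 1.35, SE 0.477, limma adjusted p = 0.590). MSTRG.6028.2, an isoform with the same start and end, had a log2 fold change of -0.43 (SE 0.525, limma adjusted p = 0.922). It was at 0 in high 9 and high 10, where MSTRG.6028.1 was at 28.7 and 19.9 FPKM. The main LAMB1 isoform, MSTRG.15200.2, averaged 11.3 ± 1.91 and 9.31 ± 2.01 FPKM. In the authors' deposited table, 4 member transcripts had a p under 0.05, of COL5A2, FN1, LAMA2 and SPARC. In the authors' deposited table the fold is low over high, 2.23 for COL5A2 and 2.91 for the FN1 isoform MSTRG.5607.5, and the q-value was 0.821 for all 4. By limma MSTRG.5607.5 had a log2 fold change of -0.87 (SE 0.611, limma adjusted p = 0.859). Another FN1 isoform, MSTRG.5607.6, went the other way, at 6.34 ± 7.68 and 2.35 ± 2.57 FPKM in high and low IMF. The FN1 sum averaged 14.4 FPKM in both groups.

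The wider matrix machinery was followed in 4 further lists, and none of their genes was called. Their counts of positive genes are to be read against the 73.4% of all genes that were positive, a share that was 49.8% with TMM scaling. In collagen processing, the enzymes and chaperones that fold, hydroxylate and cross-link procollagen, 20 of 25 tested genes were positive. LOXL2, a lysyl oxidase-like enzyme, averaged 3.63 ± 1.36 and 2.40 ± 1.18 FPKM (log2 fold change 0.46, limma adjusted p = 0.531). PLOD1, a lysyl hydroxylase, averaged 13.5 ± 3.17 and 10.3 ± 3.64 FPKM (log2 fold change 0.40, limma adjusted p = 0.582). The most abundant, the chaperones P4HB and SERPINH1, averaged 108 ± 20.6 and 111 ± 25.6 FPKM, and 52.3 ± 15.9 and 42.4 ± 12.7 FPKM.

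Of 21 matrix receptors tested, 19 were positive, and ITGA7, the integrin alpha chain that binds laminin on muscle fibres, was negative. It was at 3.42 to 48.7 FPKM in high IMF (median 24.7) and 20.3 to 60.3 FPKM in low IMF (median 31.5), with overlapping groups (log2 fold change -0.85, SE 0.315, limma adjusted p = 0.531). In the TGF-beta pathway 13 of 19 were positive, led by TGFBI at 10.2 ± 2.43 and 8.15 ± 3.10 FPKM (limma adjusted p = 0.643). Among other proteases and inhibitors of turnover 11 of 13 were positive, and none reached an unadjusted p of 0.05.

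Markers of other cell types were read in the same fit. Of all genes in that fit, 73.4% were positive, 6.79% were higher at an unadjusted p under 0.05 and 0.051% were called. Of 13 adipocyte genes tested, 12 were positive, 9 had an unadjusted p under 0.05 and 2 were called, LEP and TUSC5. The median log2 fold change was 0.65, against 0.14 for the 49 matrix genes, and the summed FPKM was 370 to 660 in high and 300.1 to 551 in low IMF. Smooth muscle and pericyte genes were positive in 6 of 9, macrophage genes in 6 of 9 and skeletal fibre genes in 5 of 13 cases, and none was called. The part of these cell types in the matrix values was not tested.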

How the data were processed

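RNA from longissimus dorsi of 24 pigs was sequenced as polyA libraries with 150-base read pairs, per the labels' protocols. The authors deposited FPKM per assembled transcript and animal, and the unit was inferred from the values. HISAT2 2.0.5, StringTie 1.3.3 and Sscrofa11.1 are named in the submitters' processing notes, without roles. The authors deposited a fold ratio (low over high IMF), a p-value and q-values per transcript, per the file headers; the sources used here do not say how these were computed. Only transcripts above 0 in at least 19 of 24 libraries are listed, so sums cover listed transcripts.

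FPKM was summed per gene symbol. After a filter (mean of 0.5 FPKM or more), log2(FPKM + 1) was fitted with limma 3.58.1 (R 4.3.3), using trend and robust moderation, and Benjamini-Hochberg adjustment over all 11757 genes at 0.05. Fold changes on this scale understate changes of low genes. The other scalings (trimmed mean of M values, upper quartile) were applied to the summed FPKM. Permutation tests used numpy 2.4.6 and scipy 1.17.1. All 49 symbols were matched in RefSeq, and the transcripts of 48 were compared with RefSeq positions. COL6A2 had no RefSeq interval on its listed sequence, so its transcripts were not checked in this way. The script was tested on simulated data.

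Named members were the 3 most abundant and the 2 of smallest p per role, and genes of the tested pairs; COL11A1, COL24A1, COL27A1, FMOD, FBN1, LOX, DPT, LAMA4 and LAMB3 were named after their values were seen. The other lists name the 2 of smallest p and the 2 most abundant, as far as described. Members and lists were chosen with earlier results of these data known. Alternatives were other scalings, filters, pseudocount, moderation and weights, covariates, reference transcripts, and each animal left out. Dropping high 7 and low 10 together, and dropping doubtful member transcripts, were added after seeing the data. Schwann cell genes are not reported here.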

Additional observations from a re-analysis of the deposited data

How the results depend on the processing

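No member was called under any alternative run, and of 1419 log2 fold changes of the 39 named members under alternatives, 42 turned direction. Members higher at an unadjusted p under 0.05 numbered 2, against 0 under TMM, 0 under upper-quartile scaling and 1 at a mean of at least 5 FPKM. They numbered 1 with a pseudocount of 0.1, 4 with array weights, 1 with 1 animal per shared 9 identifier digits and 1 with reference transcripts alone. Of all genes tested, 6.79% were higher in the main run, and 2.81%, 2.51%, 9.82%, 7.03%, 11.6%, 6.05% and 6.97% in these runs in the same order. With array weights 8.16% of the members were higher. Leaving out 1 animal gave 1 to 4 members higher, against 5.26% to 14.1% of all genes tested. The count was 1 without high 2, 3, 4, 6 or 8 or low 1, 7 or 12, and 4 without low 11. COL4A1 was among the members higher in all 24 cases. LAMA2 was not in 11, namely without those 8 animals or without high 5, high 10 or low 10. Members lower numbered 1, against 2 under TMM, 2 under upper-quartile scaling, 0 at a mean of at least 5 FPKM and 0 with reference transcripts alone. The last 2 of these runs tested only 27 and 32 members, and COL5A2 was in neither. LAMA2 was not in the run at a mean of at least 5 FPKM, and COL4A1 was not in the run with reference transcripts alone. Their absence from the counts there was set by the filter. Of all genes tested, 0.893% were lower in the main run, 2.34% under TMM and 2.53% under upper-quartile scaling. The median log2 fold change was 0.0754 to 0.186 over the animals left out, lowest without low 6.

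The sign turned under TMM and upper-quartile scaling for COL6A2 (-0.0113 and -0.0222), FN1 (-0.0487 and -0.0595), MMP2 (-0.0282 and -0.0388), NID2 (-0.0111 and -0.0187) and TIMP2 (-0.0431 and -0.0538), and under upper-quartile scaling for COL12A1 (-0.000636). With reference transcripts alone it turned for COL12A1 (-0.201), COL14A1 (-0.0659), COL15A1 (-0.157), COL18A1 (0.144), COL6A3 (0.141), LAMB1 (-0.287) and THY1 (-0.0912). With array weights it turned for COL16A1 (0.0632) and COL7A1 (0.0023), and with 1 animal per 9 identifier digits for COL4A2 (-0.0917). Leaving out 1 animal gave -0.0156 to 0.207 for COL12A1, -0.143 to 0.0549 for COL16A1, -0.0439 to 0.00976 for COL7A1, -0.0588 to 0.224 for FN1, -0.202 to 0.00684 for LAMB2, -0.0236 to 0.182 for NID2 and -0.186 to 0.0182 for PDGFRA. The log2 ratio of MMP2 over TIMP2 was -0.036 to 0.039 and that of DCN over BGN -0.49 to 0.061. The cause was not tested.

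Correlations lost their threshold for LAMB1 and LAMC1 (r = 0.437 under TMM, 0.297 within high IMF), NID1 and HSPG2 (0.403 under TMM, 0.594 within high, 0.498 within low IMF), COL1A1 and SPARC (0.639 within high IMF) and COL1A1 and COL4A1 (0.274 within high IMF). Within a group, 12 animals enter in place of 24. Keeping symbols apart by chromosome left all sums as they were, as no member is on more than 1 chromosome. No paired analysis was possible because the labels give no replicate numbers. Genes under 0.5 FPKM were not tested.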
